A study of Mus musculus with 6 samples.

Results

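The testis of the inbred mouse strain C57BL/6 was examined on either side of birth, with 1 Affymetrix array for fetal testis at 15.5 days postcoitum and 1 for neonatal testis at postnatal day 1. These are 2 of the 6 arrays of a survey of male and female gonads, which also holds adult testis at 10 weeks and ovary at the same 3 ages. No treatment or engineered allele is named for any group, and the number of animals behind an array is not given. The series was set up as a screen for genes of chromosome segregation in meiosis I, and the interval described here lies before male germ cells enter meiosis. The arrays were chosen by their titles, and every gene with a probe set annotated to it alone was measured on both, 18193 genes in all.

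Around birth the testis is made of seminiferous cords and the tissue between them. Inside the cords, Sertoli cells, the somatic cells that direct male development and later nurse spermatogenesis, still divide and surround the gonocytes, the male germ cells. Gonocytes stop dividing in the fetus, shut down the pluripotency genes carried over from primordial germ cells, rebuild DNA methylation, silence transposons with small RNAs called piRNAs, and resume division after birth as they become spermatogonia. Between the cords, fetal Leydig cells make the androgens that masculinize the fetus, beside peritubular myoid cells, vessels, macrophages and a pool of mesenchymal progenitors.

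Values are scaled probe set signals. Signals under 75.3, the median of all scaled values, were raised to that floor, and a fold against an array at the floor is a lower bound, written "at least". Medians of gene lists are taken over floored values and are bounds in the same way where they rest on such a gene. With 1 array a side there is no replicate check and no test, and a gene is called where its signals differ by 2-fold or more, with a stricter limit of 4 beside it. The only error the files give is technical: between probe sets of the same gene, the robust SD of a log2 ratio was 0.24, over 4571 genes. Of 259 called genes with a further probe set above the floor on both arrays, 236 had the same sign in every such probe set. That SD holds no variation between animals. In whole testes, fewer cells of a type cannot be told apart from less RNA per cell. The gene lists and their members were chosen with earlier results of these data known. Their counts, set beside the share of all genes, are descriptions and lend no support.

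The tissue labels were checked against defining genes. Amh, the Sertoli hormone that removes the female duct, had signals of 2093 in fetal and 5304 in neonatal testis, while fetal and neonatal ovary lay at the floor. Foxl2, the ovarian transcription factor, had 189.8 in fetal and 142 in neonatal testis, against 532 in fetal and 878 in neonatal ovary. Between 11906 and 12192 genes lay above the floor on these arrays, and Gapdh, read at its 3' over its 5' end to judge RNA integrity, gave ratios of 1.36 in fetal and 1.43 in neonatal testis. The same ratio of Actb was 3.14 and 2.91. In fetal and neonatal ovary, used below for comparison, Gapdh gave 1.45 and 3.12 and Actb 3.78 and 3.28.

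Of 12669 genes above the floor on at least 1 of these arrays, 417 (3.29%) were 2-fold or more higher in neonatal testis and 623 (4.92%) were lower. At the limit of 4 there were 65 genes higher (0.513%) and 80 lower (0.631%). Log2 signals correlated with r = 0.94 across genes, which are not independent replicates. The balance of higher and lower calls depended on the scale: higher genes made up 40.1% of the 2-fold calls, 54.8% after scaling to equal medians and 26.4% after scaling to the spiked hybridization controls. The median log2 ratio of all genes was -0.06, and it lay between -0.23 and 0.06 under the other scalings, and a scaling by 1 factor moves all ratios above the floor by the same step. Of 44 gene lists, 15 had a median that changed sign under another scaling, each of them within 0.22 of 0. The 6 lists with a median of 1 or more in size were the secreted and surface products of Sertoli cells on the higher side, and red blood cells, surface and duct epithelium, Hox genes and cholesterol synthesis on the lower side. The Hox list was added after the values were seen, and nothing is read from its median. The 12 housekeeping genes had a median of 0.09 and the 21 genes of oxidative phosphorylation 0.18, and none of either list was called.

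**Figure D1:**
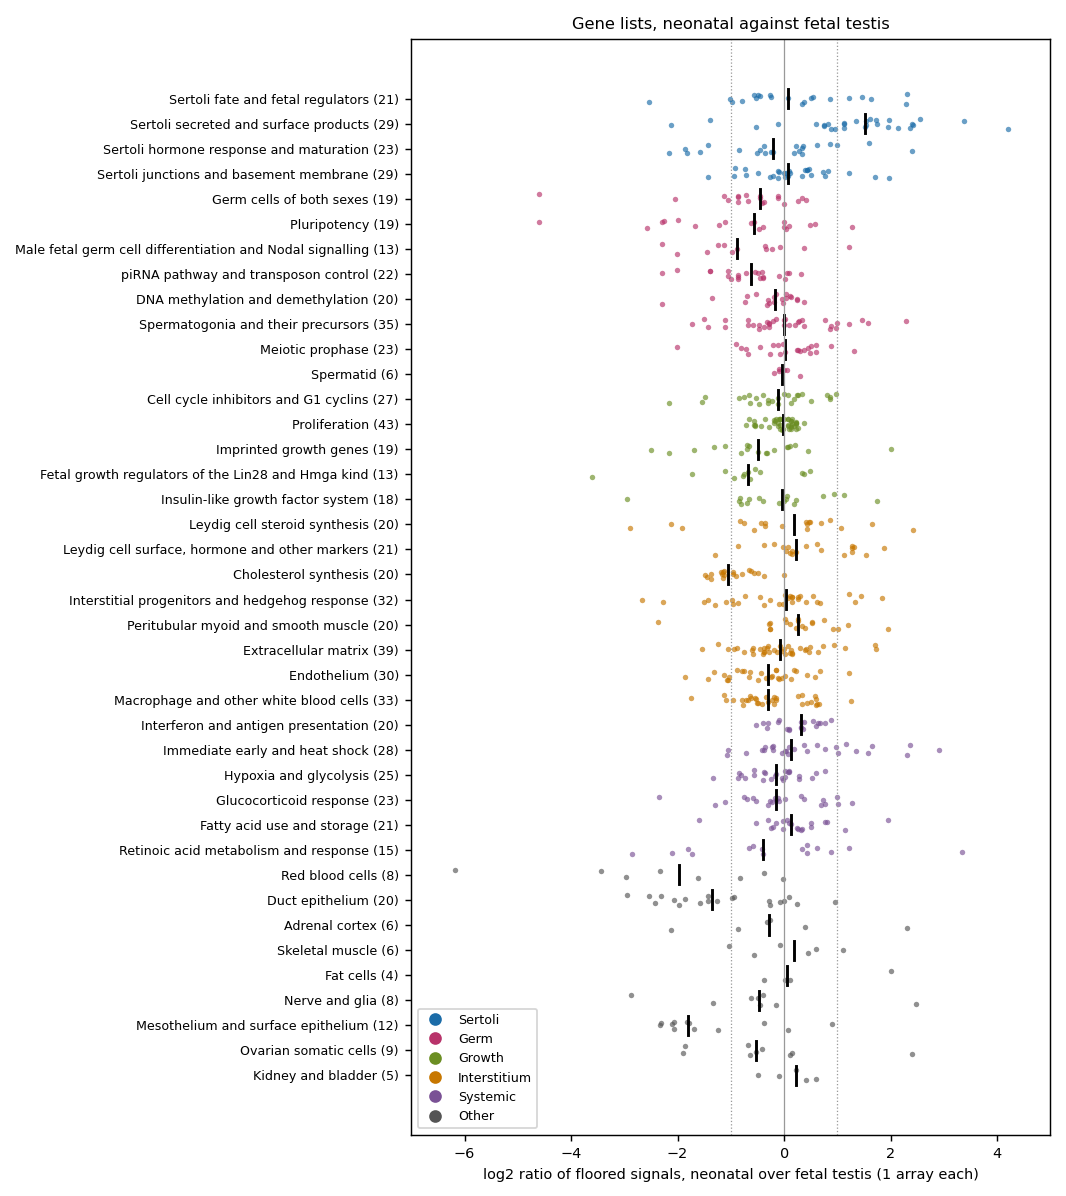
Each point is a gene of 1 of 40 lists, placed by its log2 ratio of neonatal over fetal testis (x axis, floored signals, 1 array each), with the list's median as a black bar and the number of genes above the floor in parentheses. Dotted lines mark the 2-fold limit, within which 11629 of 12669 genes lie, among them all 43 proliferation genes. The median bar of the secreted Sertoli products stands at 1.53 and that of cholesterol synthesis at -1.05.

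Genes for what Sertoli cells secrete or display were higher in neonatal testis. All 29 such genes on the arrays were above the floor, and 19 were called higher, where 3.29% of all genes were, and 2 lower. At the limit of 4 there were 7 higher and 1 lower. Their median log2 ratio was 1.53, against -0.06 for all genes. Their summed signal was 53195 in fetal and 129652 in neonatal testis.

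Cst12, a cystatin protease inhibitor of the testis, had the largest ratio among genes higher in neonatal testis. Its signals were 600.1 in fetal and 11092 in neonatal testis, which is 18.5-fold higher. It had 5167 in adult testis, and 509, 1256 and 1606 in fetal, neonatal and adult ovary, so the neonatal testis stood above the other 5 arrays. Serpina5, the protein C inhibitor, had 244 in fetal and 2551 in neonatal testis and was 10.4-fold higher. It was at the floor in fetal and neonatal ovary, and adult testis lay between the other testes at 1186. Mmd2, a membrane protein of Sertoli cells, was 5.89-fold higher (849 in fetal and 5005 in neonatal testis). Mro, named maestro for its male-biased expression in the gonad, was 5.26-fold higher (210.3 in fetal and 1107 in neonatal testis).

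The hormones and signals of the Sertoli cell rose as well. Amh was 2.53-fold higher, on the signals given above. Inha and Inhbb encode the subunits of inhibin B, the hormone by which Sertoli cells restrain pituitary FSH. Inha was 2.89-fold higher (3654 in fetal and 10554 in neonatal testis), and Leydig cells are known to express it too. Inhbb was 3.29-fold higher (1301 in fetal and 4279 in neonatal testis). Dhh, the hedgehog ligand that acts on Leydig and peritubular cells, was 3.36-fold higher (963 in fetal and 3240.3 in neonatal testis). Kitl, the ligand of the receptor Kit on germ cells, was 2.18-fold higher (1456 in fetal and 3169.5 in neonatal testis). Gdnf, which sustains spermatogonial stem cells, had 149.9 in fetal and 292 in neonatal testis and stayed under the limit.

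Both Sertoli-associated steroid dehydrogenases rose. Hsd17b3, which turns androstenedione into testosterone and is made by Sertoli cells in the fetal testis, had 702 in fetal and 3776 in neonatal testis and was 5.38-fold higher. Hsd17b1, which reduces estrone, had 594 in fetal and 3037 in neonatal testis and was 5.11-fold higher. The other called genes were Cp (ceruloplasmin, 4.40-fold higher), Tmem184a (3.94-fold higher), Fabp3 (a fatty acid carrier, 3.87-fold higher), Tesc (3.06-fold higher), Bcan (a proteoglycan, 2.89-fold higher), Cbln1 (2.88-fold higher), Aard (2.18-fold higher) and Vnn1 (a pantetheinase, 2.17-fold higher). Cp had 76.6 in fetal testis, just above the floor, and 337 in neonatal testis. Several of these were called higher in ovary over the same interval too. They were Cp (6.08-fold higher), Tesc (5.52-fold higher), Fabp3 (2.70-fold higher), Tmem184a (2.33-fold higher) and Vnn1 (2.17-fold higher). Bcan and Aard were not called there, and Cbln1 was at the floor in fetal and neonatal ovary. Clu, the secreted chaperone clusterin, had 7816 in fetal and 13874 in neonatal testis and stayed under the limit. Col9a3, a collagen chain, and Sostdc1, a BMP and Wnt antagonist, went the other way and were 4.36-fold lower and 2.63-fold lower.

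**Figure D2:**
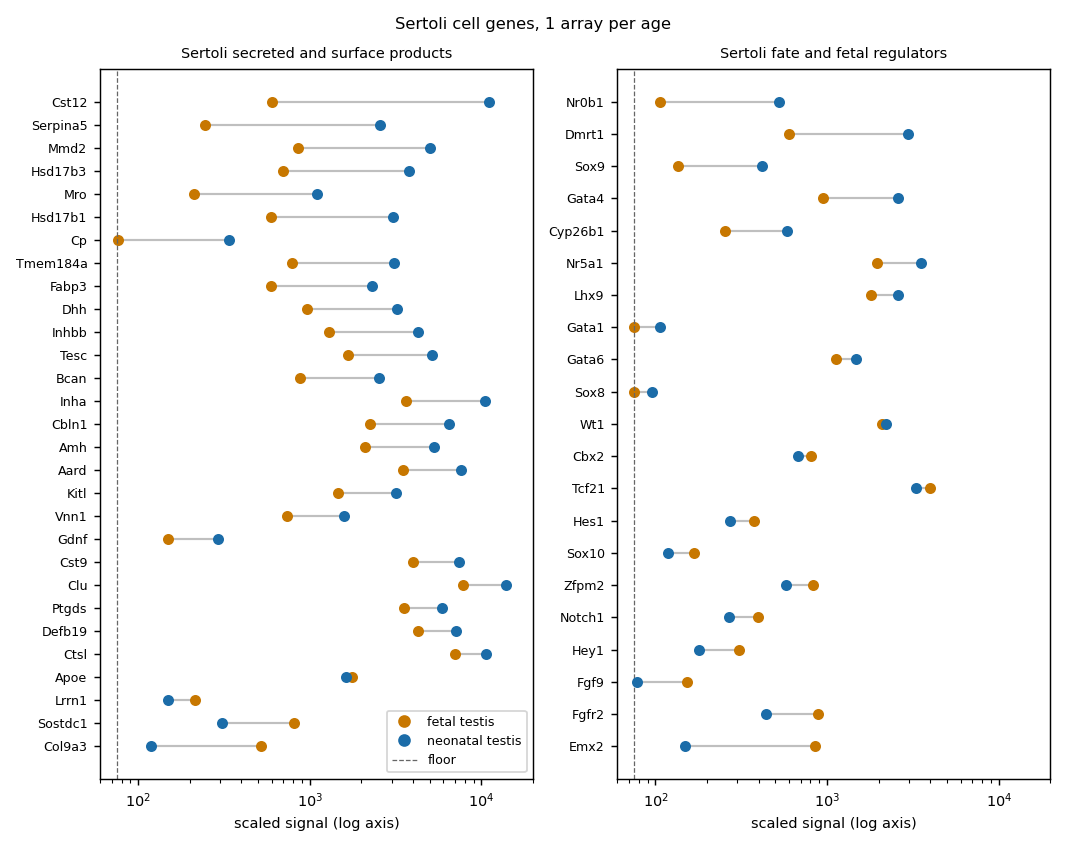
Scaled signals (x axis, log scale) of Sertoli cell genes above the floor in fetal (orange) and neonatal (blue) testis, 1 array each, with the floor as a dashed line. On the left, 25 of the 29 secreted and surface products have the blue point to the right of the orange one, and Cst12 at the top spans the widest gap; on the right, the fate regulators are spread to both sides.

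The regulators of Sertoli cell fate were divided. Of 21 genes above the floor, 5 were called higher and 2 lower (3.29% and 4.92% of all genes). The median was 0.08, and its sign turned with the scaling. Dmrt1, a transcription factor of Sertoli and germ cells that keeps the male fate after birth, had 599.6 in fetal and 2945 in neonatal testis and was 4.91-fold higher. Sox9, the factor directly downstream of the male-determining gene Sry, had 135 in fetal and 418 in neonatal testis and was 3.09-fold higher. Gata4, a zinc finger factor of gonadal somatic cells, had 946 in fetal and 2595 in neonatal testis and was 2.74-fold higher. Nr0b1 (Dax1), a nuclear receptor, rose from 107 to 525 and was 4.92-fold higher. Cyp26b1, the enzyme that breaks down retinoic acid and keeps fetal male germ cells out of meiosis, was 2.31-fold higher (254 in fetal and 587 in neonatal testis).

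Lower among these regulators were Emx2, a homeobox gene of the gonad and urogenital ducts, and Fgfr2, a receptor for the Sertoli signal FGF9. Emx2 had 856 in fetal and 148 in neonatal testis and was 5.79-fold lower, and it also stands in the duct epithelium list below. Fgfr2 was 2.03-fold lower (887 in fetal and 438 in neonatal testis). Fgf9 itself had 154 in fetal and 77.8 in neonatal testis, under the limit. Nr5a1 (SF1), a regulator of steroidogenic and Sertoli genes, had 1962 in fetal and 3543 in neonatal testis, and Wt1, needed to keep the Sertoli lineage, had 2094 in fetal and 2206 in neonatal testis. Both are within 2-fold.

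Genes of hormone response and maturation had no common direction. Of 23 above the floor, 2 were called higher and 5 lower (3.29% and 4.92% of all genes), with a median of -0.20. Fshr, the receptor for follicle stimulating hormone and the start of Sertoli FSH response, rose from 92.3 to 489 and was 5.29-fold higher. It was at 111 in adult testis. Tubb3, a beta tubulin, was 3.02-fold higher (127 in fetal and 384 in neonatal testis). Shbg, which gives the androgen binding protein of Sertoli cells and stands on no list, had 167 in fetal and 1043 in neonatal testis and was 6.25-fold higher. The thyroid hormone receptor Thra, through which thyroid hormone ends Sertoli division, had 1972 in fetal and 3596 in neonatal testis, and the gap junction protein Gja1 had 4449 in fetal and 7846 in neonatal testis. Neither reached 2-fold, and another probe set of Gja1 was lower after birth (log2 ratio -0.42).

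The 5 lower genes of this list included both keratins. Krt18, a keratin of the fetal Sertoli cell and of epithelia, had 1928 in fetal and 531 in neonatal testis and was 3.63-fold lower. Krt8, its partner, was 2.69-fold lower (1860.1 in fetal and 692 in neonatal testis). Vim, the other intermediate filament of Sertoli cells, had 9667 in fetal and 12259 in neonatal testis, and Amh, a hormone of the immature Sertoli cell, was 2.53-fold higher, as given above. Both keratins also belong to the duct epithelium list, in which 11 of 20 genes were lower, and the part of duct cells in their fall was not tested. Ncam1, an adhesion molecule, was 3.55-fold lower (2403 in fetal and 677 in neonatal testis). Rhox5, an X-linked homeobox gene that androgen drives in the postnatal Sertoli cell, was 2.99-fold lower (920.1 in fetal and 308 in neonatal testis). Cdkn1c (p57), an imprinted inhibitor of the cell cycle, was 4.49-fold lower (4262 in fetal and 948 in neonatal testis), whereas Cdkn1b (p27), the inhibitor tied to the end of Sertoli division, had 402 in fetal and 459 in neonatal testis.

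Most genes for junctions and the basement membrane stayed within 2-fold, 25 of 29 (11629 of 12669 over all genes), with a median of 0.08. Ocln, a tight junction protein, had 114 in fetal and 442 in neonatal testis and was 3.89-fold higher. Jam2, a junctional adhesion molecule, was 3.28-fold higher (435 in fetal and 1428 in neonatal testis), and Col4a3, a basement membrane collagen, left the floor and reached 174, at least 2.32-fold higher. Other probe sets gave smaller log2 ratios, 0.58 for Ocln and 0.59 for Jam2. Cldn11, the claudin of the later blood-testis barrier, had 458 in fetal and 326 in neonatal testis, which is within 2-fold. Cdh1 (E-cadherin), found in germ cells and duct epithelium, was 2.69-fold lower (654 in fetal and 243 in neonatal testis).

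Pluripotency genes, which gonocytes inherit from primordial germ cells, included many that were lower after birth. Of 26 on the arrays, 19 were above the floor, 8 were called lower (4.92% of all genes), 4 of them past the limit of 4 (0.631% of all genes), and 1 was higher, with a median of -0.57. Dppa3 (Stella), a factor that protects the genome from demethylation and marks germ cells, had 1819 in fetal testis and dropped to the floor in neonatal testis, at least 24.2-fold lower. It was at the floor in adult testis too, and in ovary it went from 253 to 4911. Pou5f1 (Oct4), the central pluripotency factor, had 775 in fetal and 130.3 in neonatal testis and was 5.95-fold lower. Utf1, a chromatin-bound factor, was 4.93-fold lower (779 in fetal and 158 in neonatal testis). Dppa5a, an RNA-binding protein, was 4.81-fold lower (1497 in fetal and 311 in neonatal testis).

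Dppa4, a nuclear protein of pluripotent cells, had 3426 in fetal and 857 in neonatal testis, just under the limit of 4. Sox2, the partner of Oct4, had 241 before birth and was at the floor after it, at least 3.20-fold lower. Fbxo15 likewise reached the floor from 176, at least 2.34-fold lower. Lin28a, which blocks the maturation of let-7 microRNAs, was 2.16-fold lower (196 in fetal and 90.8 in neonatal testis). Nanog, Prdm14 and Tfap2c could not be read here, since they were at the floor on both arrays. Tcl1, a cofactor of the kinase AKT, was the single gene of the list called higher (2.41-fold higher, 98.5 in fetal and 237 in neonatal testis).

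General germ cell genes were lower in part. Of 19 genes of germ cells of both sexes above the floor, 4 were called lower, where 4.92% of all genes were, and none higher, with a median of -0.45. Ddx4 (Vasa), an RNA helicase of all germ cells, had 1609.6 in fetal and 1206 in neonatal testis. Dazl, which controls translation in germ cells, had 1222 in fetal and 1615 in neonatal testis. Sall4, a zinc finger factor of gonocytes, had 853 in fetal and 855 in neonatal testis, nearly equal at both ages. Kit had 447 in fetal and 345 in neonatal testis. These 4 stayed within 2-fold. Over the whole list, 15 of the 19 genes had a lower signal in neonatal testis and 4 a higher one, Dazl and Sall4 among the latter. The called genes were Dppa3, Dnd1, an RNA-binding protein that protects fetal germ cells (4.13-fold lower, 1143 in fetal and 277 in neonatal testis), Prdm1 (Blimp1), a repressor that specifies germ cells (2.20-fold lower), and Asz1 (2.07-fold lower), described with the piRNA pathway.

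Genes by which fetal male germ cells differentiate were lower after birth in part. Of 13 genes above the floor in the list of male fetal differentiation and Nodal signalling, 5 were called lower and 1 (Cyp26b1) higher. Over all genes 4.92% were lower and 3.29% higher, and the list's median was -0.89. Dnmt3l, the cofactor of de novo DNA methylation, had 518 in fetal and 106 in neonatal testis and was 4.87-fold lower. Piwil4 (Miwi2), the nuclear piRNA protein that guides methylation to transposons, had 597 in fetal and 148 in neonatal testis and was 4.02-fold lower. Both were at the floor in fetal and neonatal ovary. Stk31, a Tudor domain kinase, was 2.73-fold lower (1192 in fetal and 438 in neonatal testis). Lefty2, an inhibitor and target of Nodal, had 166 in fetal testis and was at the floor in neonatal testis, at least 2.20-fold lower. Nodal itself had 95.6 in fetal testis and was at the floor after birth. Bnc1, a zinc finger gene of germ cells and mesothelium, was 2.37-fold lower (602 in fetal and 253 in neonatal testis).

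In the piRNA pathway 6 of 22 genes above the floor were called lower, against 4.92% of all genes, and none higher, with a median of -0.63. Beside Dnmt3l and Piwil4, these were Morc1, which represses transposons (2.63-fold lower, 968 in fetal and 367 in neonatal testis), Tdrd9, a helicase that works with Miwi2 (2.62-fold lower, 766 in fetal and 292 in neonatal testis), Tdrd5, a Tudor protein of the germ granules (2.07-fold lower, 368 in fetal and 178 in neonatal testis), and Asz1, a mitochondrial anchor of the piRNA machinery (2.07-fold lower, 956 in fetal and 462 in neonatal testis). Piwil2 (Mili), the cytoplasmic partner that makes primary piRNAs, had 743 in fetal and 545 in neonatal testis and stayed within 2-fold. Exd1, which promotes piRNA biogenesis, had 312 in fetal and 156 in neonatal testis, close to the limit. The list shares 8 of its genes with the list of germ cells of both sexes and 3 with that of male fetal differentiation, so these counts are not separate evidence.

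Among 20 genes of DNA methylation and demethylation, Dnmt3l and Tet2 were called lower (4.92% of all genes), and the median was -0.17. Tet2, which oxidizes methylated cytosine, had 343 in fetal and 134 in neonatal testis and was 2.56-fold lower. The methyltransferases were not called by their brightest probe sets. Dnmt3a, a de novo methyltransferase active in gonocytes, had 1389.9 in fetal and 966 in neonatal testis, but another of its probe sets went from 587 to 154 (log2 ratio -1.93). Dnmt3b, its relative, had 478 in fetal and 565 in neonatal testis, and Dnmt1, which copies methylation at replication, had 1919 in fetal and 1871 in neonatal testis.

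**Figure D3:**
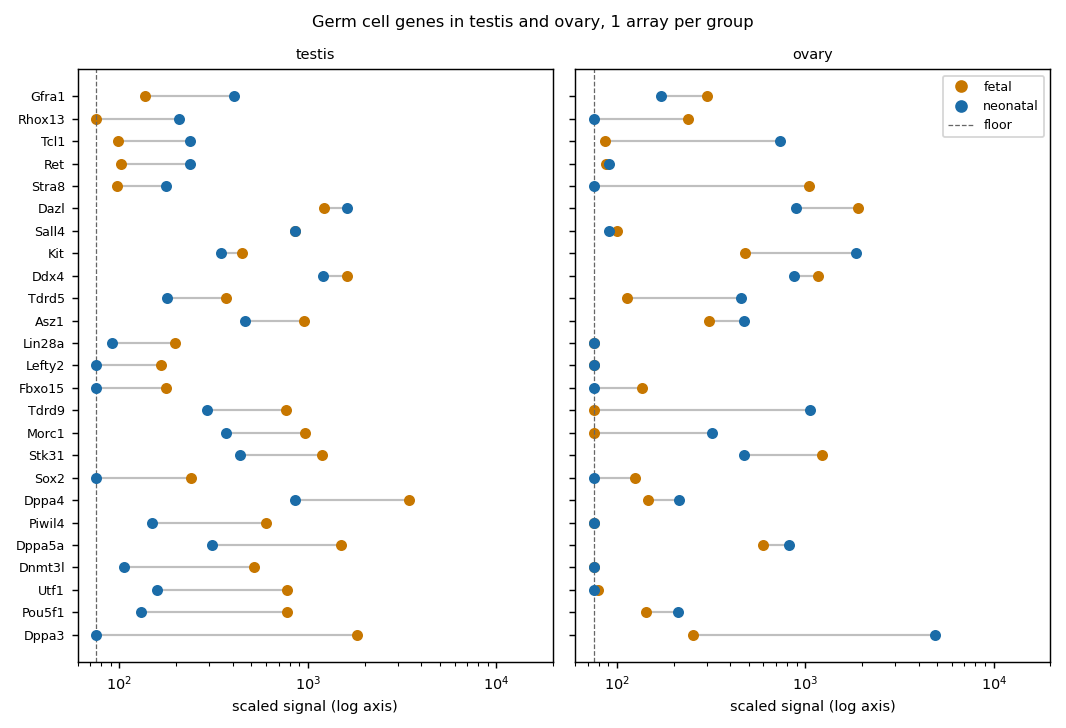
Scaled signals (x axis, log scale) of 25 germ cell genes in testis (left) and ovary (right), fetal in orange and neonatal in blue, 1 array per group, with the floor as a dashed line. In testis the genes from Kit down have the neonatal signal to the left of the fetal one; Dppa3 at the bottom falls to the floor in testis and has 4911 in neonatal ovary.

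Genes of spermatogonia and their precursors split into both directions. Of 35 above the floor, 4 were called higher and 5 lower (3.29% and 4.92% of all genes), with a median of -0.01. Gfra1, the receptor subunit for GDNF on spermatogonial stem cells, had 136 in fetal and 407 in neonatal testis and was 2.99-fold higher. Ret, the kinase that signals with Gfra1, was 2.34-fold higher (102 in fetal and 237 in neonatal testis). Rhox13, an X-linked homeobox gene of male germ cells, left the floor and reached 207, at least 2.75-fold higher. Dmrt1, given above, is also on this list. Zbtb16 (PLZF), a repressor needed for stem cell renewal, left the floor and reached 149, at least 1.99-fold higher, a bound just short of the limit. Sohlh2, a factor of differentiating spermatogonia, had 108 in fetal and 212 in neonatal testis, just under it. Id4 and Etv5, of the stem cell state, had 468 in fetal and 565 in neonatal testis and 453 in fetal and 773 in neonatal testis.

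The 5 that were lower were Lin28a and Cdh1, given above, Crabp1, a retinoic acid carrier (3.31-fold lower), Thy1, a surface protein (2.84-fold lower), and Nxf2, an X-linked RNA export factor (2.15-fold lower). Neurog3, Pax7 and Magea4 were at the floor on both arrays.

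Meiotic genes had no common direction. Of 32 on the arrays, 23 were above the floor, and the median was 0.02. Among them 1 was called higher and 1 lower, near the 3.29% and 4.92% of all genes. Syce3, a synaptonemal complex protein, had 98.6 in fetal and 244 in neonatal testis and was 2.48-fold higher. Tex14, which keeps the bridges between germ cells open, was 4.03-fold lower (902 in fetal and 224 in neonatal testis). Stra8, the gene required for meiotic entry, had 96.8 in fetal and 178 in neonatal testis, under the limit, against 1047 in fetal ovary. Sycp3, of the chromosome axis, had 578 in fetal and 481 in neonatal testis. Of 22 spermatid genes, 16 were at the floor on both arrays and none of the other 6 was called.

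Genes of cell division stayed within 2-fold. None of 43 proliferation genes was called in either direction, where 11629 of 12669 over all genes were within 2-fold. Their log2 ratios lay between -0.72 and 0.38 with a median of -0.03. Mki67, a marker of cycling cells, had 3852 in fetal and 3174 in neonatal testis, and Pcna, the replication clamp, had 6077 in fetal and 7062 in neonatal testis. Among 27 inhibitors and cyclins of the G1 phase, 3 were lower (4.92% of all genes) and none higher, with a median of -0.12. Besides Cdkn1c these were Ccnd1 (cyclin D1, 2.92-fold lower, 1328 in fetal and 456 in neonatal testis) and Ccne2 (cyclin E2, 2.79-fold lower, 321 in fetal and 115 in neonatal testis). Ccnd2, another cyclin of the D type, had 4996 in fetal and 9109 in neonatal testis, a higher signal that stayed under the limit.

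Several genes of the fetal growth state were lower. Hmga2, a chromatin protein of embryonic growth that let-7 represses, had 1239 in fetal and 101 in neonatal testis and was 12.3-fold lower. Its ovary signals were 2394 and 355. Within the list of such regulators, 3 of 13 were called lower (4.92% of all genes) and none higher, with a median of -0.68. Sox11, a factor of embryonic mesenchyme and nerve, was 3.32-fold lower (733 in fetal and 221 in neonatal testis), and Lin28a was the third. Igf2bp1 and Igf2bp3, fetal RNA-binding proteins, had 405 in fetal and 252 in neonatal testis and 1596 in fetal and 1027 in neonatal testis.

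Imprinted growth genes had 5 of 19 lower and 1 higher (4.92% and 3.29% of all genes), with a median of -0.49. Asb4 was 5.63-fold lower (929 in fetal and 165 in neonatal testis), and Mest, expressed from the paternal allele in embryonic mesoderm, was 2.49-fold lower (5742 in fetal and 2309 in neonatal testis). The noncoding Mirg (3.25-fold lower) and the neuronal Nnat (2.16-fold lower) followed, with Cdkn1c as the fifth. Igf2, the fetal growth factor, had 7722 in fetal and 4758 in neonatal testis, and the maternally expressed Meg3 had 11574 in fetal and 10099 in neonatal testis, both within 2-fold. Gatm, the first enzyme of creatine synthesis, was higher at the limit of 4 (279 in fetal and 1115 in neonatal testis).

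In the insulin-like growth factor system the binding proteins moved furthest. Igfbp2 had 3304 in fetal and 427 in neonatal testis and was 7.73-fold lower, against 3943 and 2997 in fetal and neonatal ovary. Igfbp6, which favours IGF2, was 3.35-fold higher (696 in fetal and 2329 in neonatal testis), and Htra1, a protease that cuts such binding proteins, was 2.17-fold higher (1014 in fetal and 2202 in neonatal testis). Of 18 genes above the floor, these 3 were the called ones, and the median was -0.05. Over all genes 3.29% were higher and 4.92% lower. Igf1 had 2917 in fetal and 5618 in neonatal testis and the receptor Igf1r 782 in fetal and 730.0 in neonatal testis.

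Genes of the steroid synthesis list went both ways. Of 20 genes, 3 were called lower (4.92% of all genes), 2 of them past the limit of 4, and 3 higher (3.29%). Of the higher ones, Hsd17b3 is also on the list of Sertoli products and Nr4a1 on that of immediate early genes. The median of 0.19 turned its sign under another scaling. Star, which moves cholesterol into the mitochondrion at the start of the pathway, had 1277 in fetal and 171 in neonatal testis and was 7.45-fold lower. It had 256 in adult testis, and the neonatal testis was the lowest of the 3 testes. Cyp11a1, the side chain cleavage enzyme that makes pregnenolone, had 5071 in fetal and 3025 in neonatal testis, a fall within 2-fold. Hsd3b1, the next step, had 6015 in fetal and 8134 in neonatal testis, and its higher signal also stayed within 2-fold. Cyp17a1, which makes the androgens, had 9438 in fetal and 2505 in neonatal testis and was 3.77-fold lower. The last step to testosterone, Hsd17b3, was 5.38-fold higher, as given above with the Sertoli products.

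Cyp11b1, the 11-beta-hydroxylase of the adrenal cortex that fetal testes can express, had 329 in fetal testis and was at the floor after birth, at least 4.36-fold lower. Of 7 adrenal cortex genes on the arrays 6 were above the floor, with summed signals of 967 in fetal and 956 in neonatal testis. Much of the neonatal sum is Nr0b1, which is also on the list of Sertoli fate regulators and had 107 in fetal and 525 in neonatal testis. Of the 6 genes, 4 had a lower signal after birth and 2 a higher one. Cyp11b1 was called lower and Nr0b1 higher (4.92% and 3.29% of all genes), and the median was -0.29. Cyp21a1, the adrenal 21-hydroxylase, had 206 in fetal and 172 in neonatal testis, and Cyp11b2 was at the floor on both arrays. The part of adrenal cells in the fall of Cyp11b1 was not tested.

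Nr4a1 (Nur77), an immediate early receptor that LH induces in Leydig cells, was 3.15-fold higher (316 in fetal and 994 in neonatal testis), and Ncoa7, a coactivator, was 2.09-fold higher (370.4 in fetal and 773 in neonatal testis). Fdx1, the electron donor of the mitochondrial P450 enzymes, had 4521 in fetal and 2541 in neonatal testis, and Scarb1, the HDL receptor through which steroid cells take up cholesterol, had 2073 in fetal and 1624 in neonatal testis.

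**Figure D4:**
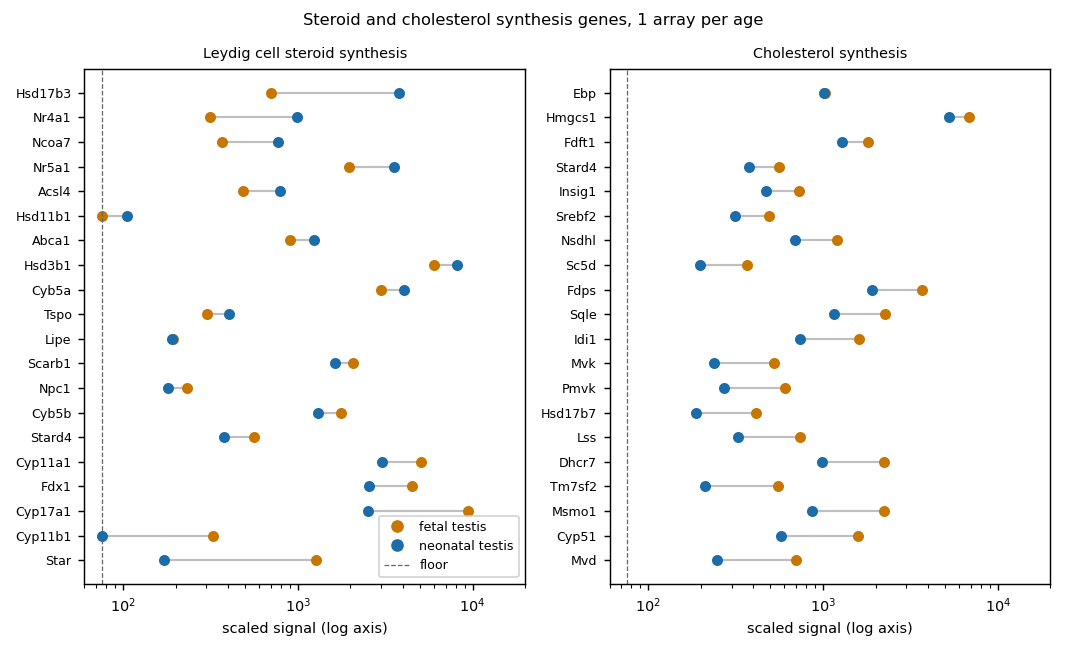
Scaled signals (x axis, log scale) of 20 steroid synthesis genes (left) and 20 cholesterol synthesis genes (right) in fetal (orange) and neonatal (blue) testis, 1 array each, with the floor as a dashed line. On the left the blue points lie on both sides of the orange ones, with Star and Cyp17a1 far to the left; on the right every blue point lies at or to the left of its orange partner.

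Cholesterol synthesis was lower throughout. All 20 genes above the floor had a lower signal in neonatal testis, 10 of them by 2-fold or more, where 4.92% of all genes were called lower. The exception under another scaling was Ebp, at a log2 ratio of -0.01, whose sign turns with scaling to equal medians. None was past the limit of 4, and the median was -1.05. The mevalonate end held Mvd, mevalonate diphosphate decarboxylase, with 701 in fetal and 249 in neonatal testis (2.82-fold lower). Mvk, mevalonate kinase, was 2.19-fold lower, Pmvk, the next kinase, 2.22-fold lower, and Idi1, isopentenyl isomerase, 2.18-fold lower. Among the later steps, Lss, which closes the sterol rings, was 2.25-fold lower (737 in fetal and 327 in neonatal testis), Cyp51, lanosterol demethylase, 2.74-fold lower (1577 in fetal and 576 in neonatal testis), Msmo1, methylsterol monooxygenase, 2.59-fold lower (2241 in fetal and 864 in neonatal testis), and Tm7sf2, a sterol reductase, 2.59-fold lower (550.1 in fetal and 212 in neonatal testis). Hsd17b7 was 2.22-fold lower and Dhcr7, which makes cholesterol from its last precursor, 2.27-fold lower (2237 in fetal and 987 in neonatal testis).

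The others were lower by less than 2-fold. Hmgcs1, an early enzyme of the mevalonate route, had 6826 in fetal and 5267 in neonatal testis. Sqle, squalene epoxidase, had 2261 in fetal and 1155 in neonatal testis and Fdps, farnesyl diphosphate synthase, 3706 in fetal and 1896 in neonatal testis, both close to the limit. Srebf2, the transcription factor that drives the pathway when sterol is low, had 490.3 in fetal and 312 in neonatal testis, and Insig1, its feedback inhibitor, 728 in fetal and 473 in neonatal testis. In ovary over the same interval the same 20 genes had a median of -0.12, with 1 called higher and none lower. The difference between testis and ovary could not be tested.

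These genes are known as targets of SREBP2, which binds promoters beside the factor NF-Y at the CCAAT box. The promoters of these genes were searched in 250-base windows before the RefSeq start (assembly GRCm38.p6) for CCAAT or its reverse complement ATTGG. The letters occurred in 16 of 19 windows of cholesterol genes (84.2%), which cover 16 genes. All 32851 windows of that length held them in 33.8%, and windows of genes above the floor in 34.8%. The share was 28.6% for steroid synthesis (4 of 14 windows), 33.3% for secreted Sertoli products (8 of 24) and 42.9% for pluripotency (6 of 14). A match is a description of the letters and no evidence of binding. The letters do not depend on the signals measured here, and called and uncalled genes were not compared. The 4 cholesterol genes with the largest falls are shown with the 150 bases before the start, read 5′ to 3′ along the gene's strand, with CCAAT or ATTGG in capitals. Mvd lies at chr8:122443423-122443572, Cyp51 at chr5:4104698-4104847, Msmo1 at chr8:64733579-64733728 and Tm7sf2 at chr19:6067851-6068000, all on the minus strand.
Mvd: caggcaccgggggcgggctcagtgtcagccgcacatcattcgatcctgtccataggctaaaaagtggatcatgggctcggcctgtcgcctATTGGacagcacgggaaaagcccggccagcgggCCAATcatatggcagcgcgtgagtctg
Cyp51: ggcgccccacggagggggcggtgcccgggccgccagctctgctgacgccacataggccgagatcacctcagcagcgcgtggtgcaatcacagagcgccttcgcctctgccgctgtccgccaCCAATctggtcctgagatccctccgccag
Msmo1: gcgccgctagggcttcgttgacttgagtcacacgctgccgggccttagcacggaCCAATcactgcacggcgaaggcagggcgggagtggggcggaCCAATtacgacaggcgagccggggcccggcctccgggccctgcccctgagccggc
Tm7sf2: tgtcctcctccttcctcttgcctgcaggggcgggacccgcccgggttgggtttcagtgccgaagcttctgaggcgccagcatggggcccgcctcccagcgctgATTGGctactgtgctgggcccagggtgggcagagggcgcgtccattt

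Genes on a list of other Leydig cell markers were more often called higher than lower. Of 21 above the floor, 7 were called higher and 1 lower (3.29% and 4.92% of all genes), with a median of 0.23. Insl3, named in this list, was not among the genes measured. Gsta3, a glutathione transferase with steroid isomerase activity, was 3.67-fold higher (230.2 in fetal and 844 in neonatal testis), with a log2 ratio of 0.75 in another probe set. Gstm1 and Gstm2, detoxifying transferases, were 2.42-fold higher and 2.17-fold higher. Pdgfa, the ligand that recruits Leydig precursors, was 2.47-fold higher (1019 in fetal and 2519 in neonatal testis). Thbs2, a fetal Leydig thrombospondin, was 2.42-fold higher (289 in fetal and 699 in neonatal testis). Tmem35a was 2.41-fold higher, and Inha, given above, is also on this list. Agtr2, an angiotensin receptor of fetal tissues, was 2.45-fold lower (4195 in fetal and 1715 in neonatal testis). Mc2r, the ACTH receptor found on fetal Leydig cells, had 138 before birth and was at the floor after it, at least 1.83-fold lower, a bound that does not reach the limit.

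Interstitial progenitors and hedgehog response genes went both ways, 4 higher and 6 lower of 32, with a median of 0.04. Over all genes 3.29% were higher and 4.92% lower. Nr2f1 (COUP-TFI), a nuclear receptor of mesenchyme, had 1118 in fetal and 176 in neonatal testis and was 6.34-fold lower. Its relative Nr2f2 (COUP-TFII), a marker of Leydig progenitors, had 1046 in fetal and 1133 in neonatal testis, and another of its probe sets went from 265.5 to 105.5. The homeobox genes Meis2 and Meis1 were 4.85-fold lower (2496 in fetal and 515 in neonatal testis) and 2.84-fold lower (1552 in fetal and 546 in neonatal testis). Lum, a matrix proteoglycan, was 2.69-fold lower, Jag1, a Notch ligand that restrains progenitors, 2.45-fold lower (1358 in fetal and 553 in neonatal testis), and Nes (nestin), of perivascular progenitors, 2.14-fold lower, which another probe set of Nes did not share (log2 ratio -0.01).

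Higher were Dpt, dermatopontin of the matrix (3.57-fold higher, 922 in fetal and 3293 in neonatal testis), Hhip, a target and inhibitor of hedgehog signalling (2.72-fold higher, 136 in fetal and 369.5 in neonatal testis), Ogn, osteoglycin (2.52-fold higher), and Cd34, of vessels and stroma (2.34-fold higher). The direct hedgehog targets Gli1 and Ptch1 had 602 in fetal and 595 in neonatal testis and 2952 in fetal and 3543 in neonatal testis, within 2-fold, beside the 3.36-fold higher signal of their ligand Dhh.

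Smooth muscle genes of the peritubular myoid cell and vessel wall had 3 of 20 higher and 1 lower (3.29% and 4.92% of all genes). Their median was 0.26, and in ovary the same genes had a median of 0.55, with 6 called higher and 1 lower. Myh11, the smooth muscle myosin heavy chain, was 3.86-fold higher (189.7 in fetal and 732 in neonatal testis). Ppp1r12b, a subunit of myosin phosphatase, was 2.29-fold higher, and Lmod1, an actin nucleator, at least 2.02-fold higher. Acta2, smooth muscle actin, had 6847 in fetal and 8627 in neonatal testis. Itga8, an integrin of embryonic mesenchyme, was 5.17-fold lower (1844 in fetal and 357 in neonatal testis).

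Of 39 genes of the extracellular matrix, 33 stayed within 2-fold (11629 of 12669 over all genes), and the median was -0.08. Mfap5, of elastic microfibrils, was 3.30-fold higher (90.5 in fetal and 298 in neonatal testis), Lama2, a laminin chain of muscle basement membranes, 3.26-fold higher (609.8 in fetal and 1986 in neonatal testis), and Ccn2, a growth factor target, 2.20-fold higher. Col12a1, Col14a1 and Vcan, of embryonic loose matrix, were 2.93-fold lower, 2.38-fold lower and 2.07-fold lower. The chief collagen Col1a1 had 4952 in fetal and 3988 in neonatal testis.

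Endothelial genes had 7 of 30 lower and 1 higher (Cd34), with a median of -0.30. The shares over all genes were 4.92% and 3.29%. Plvap, the diaphragm protein of fenestrated vessels, had 273 before birth and was at the floor after it, at least 3.63-fold lower. Vwf, the clotting factor of endothelium, was 2.70-fold lower, and Aplnr, the apelin receptor, 2.48-fold lower (3183 in fetal and 1285 in neonatal testis). Ets1, Emcn, Tie1 and Sox17 were 2.20-fold lower, 2.10-fold lower, 2.07-fold lower and 2.05-fold lower. The pan-endothelial Pecam1 had 299 in fetal and 255 in neonatal testis and Cdh5 (VE-cadherin) had 531 in fetal and 798 in neonatal testis, neither called.

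Genes of macrophages and other white cells had 3 of 33 lower and 1 higher (4.92% and 3.29% of all genes), with a median of -0.30. Csf1r, the receptor macrophages need to live, was 2.19-fold lower (2332 in fetal and 1065 in neonatal testis), Mrc1, the mannose receptor, 2.14-fold lower (570.3 in fetal and 266 in neonatal testis), and F13a1, a clotting factor of fetal macrophages, 3.36-fold lower (427 in fetal and 127 in neonatal testis). H2-Ab1, of MHC class II, was 2.38-fold higher (134 in fetal and 319 in neonatal testis). None of 20 interferon and antigen presentation genes was called, with a median of 0.31.

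Embryonic globins fell to or near the floor. Hbb-y, an embryonic beta-type globin, had 5496 in fetal testis and was at the floor after birth, at least 73-fold lower, and Hba-x, its alpha-type partner, was at least 10.8-fold lower from 814. Slc4a1, the red cell anion exchanger, was 7.86-fold lower, Car2, a carbonic anhydrase, 5.01-fold lower, and Alas2, of heme synthesis, 3.09-fold lower. Of 8 red cell genes above the floor 5 were called lower (4.92% of all genes), with a median of -1.98. The summed signal was 9481 in fetal and 1241 in neonatal testis. Hba-a1 and Rhag, by the probe sets annotated to them alone, were at the floor on both arrays.

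Genes of surface and duct epithelium were mostly lower in neonatal testis, and their list medians were positive in ovary. Of 12 genes of mesothelium and surface epithelium 9 were lower (4.92% of all genes), with a median of -1.81. Their summed signal was 12272 in fetal and 5141 in neonatal testis. In ovary their sum was 18291 and 26427 and their median 0.80. Muc16, a surface mucin, had 378 before birth and was at the floor after it, at least 5.02-fold lower. Podxl, a sialomucin, was 4.20-fold lower (1943 in fetal and 463 in neonatal testis), Upk3b, a uroplakin of mesothelium, 3.23-fold lower (1511 in fetal and 468 in neonatal testis), and Aldh1a2, the chief enzyme of retinoic acid synthesis, 4.31-fold lower (2289 in fetal and 531 in neonatal testis). Msln, mesothelin, had 101 in fetal and 189.9 in neonatal testis and was not called.

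Of 20 duct epithelium genes 11 were lower (4.92% of all genes), with a median of -1.35 against 0.79 in ovary. The summed signal was 13253 in fetal and 7939 in neonatal testis. Ovgp1 of this list went from the floor to 1960.5 in ovary, where skeletal muscle genes were higher too, as given below. The part of adjoining tissue in the ovary values was not tested. Cdh16, a kidney and duct cadherin, had 583 before birth and was at the floor after it, at least 7.74-fold lower. Krt19 and Krt7, shared with the mesothelium list, were 4.97-fold lower (946 in fetal and 190.3 in neonatal testis) and 4.18-fold lower (1037 in fetal and 248 in neonatal testis). Cldn7 was 5.39-fold lower, Cldn6 at least 3.91-fold lower and Wfdc2 2.98-fold lower. Pax8, which marks the urogenital ducts and kidney, had 198 in fetal and 100.1 in neonatal testis, just under the limit. Of 5 kidney and bladder genes above the floor none was called, with a median of 0.22, and Umod, Nphs1 and Slc12a1 were at the floor on both arrays.

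A list of Hox genes, the homeobox genes that mark position along the body and in the mesonephros, was added after the values were seen. Of 33 on the arrays 23 were above the floor, 13 were lower (4.92% of all genes) and none higher, with a median of -1.37, from which nothing is read since the list was chosen on these values. Hoxa5 had 876 before birth and was at the floor after it (at least 11.6-fold lower), Hoxb3 was at least 6.94-fold lower from 523, and Hoxa9 had 1432 in fetal and 201 in neonatal testis (7.12-fold lower), with a log2 ratio of -0.74 in another probe set. Their summed signal was 13928 in fetal and 8041 in neonatal testis. In ovary the same genes had a median of -0.36. A list of exocrine pancreas genes, added in the same way, had 2 of 9 lower. Cpa1, a pancreatic carboxypeptidase, had 390.3 in fetal testis and was at the floor after birth (at least 5.18-fold lower), and Clps, colipase, was at least 3.85-fold lower. Cel and Ptf1a were at the floor on both arrays, and the list's median was -0.30. The part of adjoining tissue in the falls of Krt8, Krt18, Cdh1, Emx2, Meis1, Meis2, Nr2f1 and the Hox genes was not tested.

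Of 16 skeletal muscle genes 6 were above the floor, with Tnni2 higher and Actn3 lower and summed signals of 789 in fetal and 769.9 in neonatal testis. Fat cells had 4 of 10 above the floor, and Cidea, a lipid droplet protein, was at least 4.04-fold higher. Nerve and glia had 8 of 11, with Stmn2 and Nefl lower, S100b higher and sums of 1589 and 947. Stmn2, of growing axons, had 787 in fetal and 107 in neonatal testis, while S100b, a calcium-binding protein of glia and other cells, left the floor and reached 419. In testis the medians of these 3 lists were 0.18, 0.06 and -0.47. In fetal and neonatal ovary the 6 muscle genes summed to 860 and 3726, with a median log2 ratio of 2.09. Genes of ovarian somatic cells had 2 of 9 lower, Wnt4 (1476 in fetal and 406 in neonatal testis) and Rspo1 (933 in fetal and 251 in neonatal testis), the signals that oppose the male fate, and 1 higher (Fshr), with a median of -0.53. Over all genes 4.92% were lower and 3.29% higher.

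Immediate early genes, which respond within minutes to stimuli and to tissue handling, included several that were higher. Of 28 such and heat shock genes 8 were higher (3.29% of all genes), 3 past the limit of 4, and 2 lower (4.92%). The median was 0.13. Egr2 left the floor and reached 565, at least 7.50-fold higher. Egr1 had 1088 in fetal and 5629.8 in neonatal testis and was 5.18-fold higher. Fos was 4.92-fold higher (126 in fetal and 618 in neonatal testis). In ovary over the same interval Egr1 was 7.43-fold higher and Fos 7.18-fold higher. Klf4, a factor of Sertoli and epithelial cells, was 2.96-fold higher, with a log2 ratio of 0.53 in another probe set. Ccn1, Ier2 and Dusp1 were 2.54-fold higher, 2.25-fold higher and 2.02-fold higher. Nr4a1, given above with steroid synthesis, is the other higher gene of this list, and in ovary it was 2.2-fold higher. Jun had 1073 in fetal and 923 in neonatal testis, within 2-fold, and Junb was at the floor on both arrays. The part of handling time in these values was not tested.

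Retinoic acid genes had 2 of 15 higher and 4 lower (3.29% and 4.92% of all genes), with a median of -0.40. Crabp2, a carrier that brings retinoic acid to its receptor, had 547 before birth and was at the floor after it (at least 7.27-fold lower), and Rarb, a receptor that is itself a retinoic acid target, was at least 3.48-fold lower from 262. Aldh1a2 and Crabp1, given above, were the other 2 that were lower, and the degrading enzyme Cyp26b1 was higher. Rarres1, named for its induction by retinoic acid, went the other way and was 10.1-fold higher (76.0 in fetal and 770.1 in neonatal testis). Its fetal signal lay just above the floor of 75.3, so the fold depends on the floor nearly as a bound does. Stra8, a further retinoic acid target, had 96.8 in fetal and 178 in neonatal testis.

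The metabolic and stress lists had medians between -0.15 and 0.12. Of 25 genes of hypoxia and glycolysis only Aldoc (2.54-fold lower) was called, with a median of -0.15. Of 23 glucocorticoid response genes 2 were higher (Sult1a1 and Dusp1) and 3 lower (Lcn2, Hif3a and Cebpd), with a median of -0.14. Over all genes 3.29% were higher and 4.92% lower. Another probe set had the opposite sign for Hif3a (log2 ratio 0.42) and for Cebpd (0.51). Tsc22d3 and Fkbp5, direct glucocorticoid targets, had 875 in fetal and 704 in neonatal testis and 1799 in fetal and 1607 in neonatal testis. Fatty acid genes had Fabp3 and Lpl higher and Scd1 (3.05-fold lower, 521 in fetal and 171 in neonatal testis) lower of 21, with a median of 0.12.

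Several of the largest changes were of genes on no list. The X-linked 4930550L24Rik had 184 in fetal and 2102 in neonatal testis and was 11.4-fold higher. Tmem114, a claudin-like membrane protein, had 172 in fetal and 1904 in neonatal testis (11.1-fold higher), and both genes were at the floor in neonatal ovary. Elovl2, which elongates polyunsaturated fatty acids and is needed for male fertility, had 109.7 in fetal and 1139 in neonatal testis (10.4-fold higher) and reached 2364 in adult testis. Cyp27a1, a mitochondrial enzyme that oxidizes cholesterol, had 163 in fetal and 1313 in neonatal testis (8.07-fold higher), opposite to the synthesis genes. Islr2, a membrane protein of neurons, had 96.5 in fetal testis and was 10.4-fold higher, Zg16, a lectin of secretory granules, was 8.63-fold higher, Miox, of inositol breakdown, 6.90-fold higher, and 1110064A23Rik 8.04-fold higher. Other genes that left the floor were Akr1c14, a hydroxysteroid dehydrogenase (at least 5.49-fold higher, with 414), Qpct, glutaminyl cyclase (at least 5.38-fold higher), Glb1l3 (at least 5.03-fold higher), Vxn (at least 4.42-fold higher), Minar1 (at least 4.23-fold higher), Kcng2 (at least 3.94-fold higher), Asb2 (at least 3.93-fold higher) and Clip4 (at least 3.87-fold higher). Tmem242 was at least 5.71-fold higher by its brightest probe set, which another probe set of the gene did not share (log2 ratio -0.11), and in 3 other probe sets of Clip4 the log2 ratio lay between 0.58 and 0.82.

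On the lower side Moxd1, a monooxygenase related to dopamine hydroxylase, had 1335 in fetal and 95.4 in neonatal testis and was 14.0-fold lower, whereas ovary had 2535 and 4237. Npy, a neuropeptide, had 1007 in fetal and 82.6 in neonatal testis (12.2-fold lower). Ppp1r3c, a glycogen-targeting subunit, had 876 in fetal and 98.8 in neonatal testis (8.87-fold lower) and was 9.41-fold lower in ovary. Flrt2, an adhesion and guidance protein, had 2963 in fetal and 401 in neonatal testis (7.38-fold lower), and Sema3d, a secreted semaphorin, was 6.55-fold lower. Rspo3, a secreted amplifier of Wnt signals, had 1056 before birth and was at the floor after it (at least 14.0-fold lower), as were Nts, neurotensin (at least 5.37-fold lower), and Pcdh8, a protocadherin (at least 5.11-fold lower).

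The same interval was measured in ovary on other arrays. Of the 417 genes higher in neonatal testis, 81 (19.4%) were 2-fold or more higher in neonatal ovary and 9 (2.16%) were lower. Of the 623 lower genes, 132 (21.2%) were lower in ovary and 38 (6.1%) higher. Of all 12669 genes, 4.19% were higher and 3.42% lower in ovary. The embryonic globins and Hmga2 were lower in both organs. Of the 29 secreted Sertoli products, 8 were at the floor in both of these ovaries. These 8 include Serpina5, Mmd2, Mro, Hsd17b1 and Hsd17b3, past the limit of 4 in testis, and Amh, Cbln1 and Gdnf, which were not. The other 21 had a median of 0.51 in ovary, with 7 called higher and none lower. Over all 29, the ovary median was 0.16, where those 8 count as unchanged, and the testis median was 1.53. No testis median was taken over the 21 alone. Of 19 pluripotency genes 4 were at the floor in both ovaries. The other 15 had a median of 0.53 in ovary, with 5 called higher and none lower. Over all 19, the ovary median was 0.47 and the testis median -0.57. In all, 47 genes moved 2-fold or more in opposite directions. With 1 array per group the difference between the organs was not tested. Nor was the part of adjoining tissue in either organ.

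**Figure D5:**
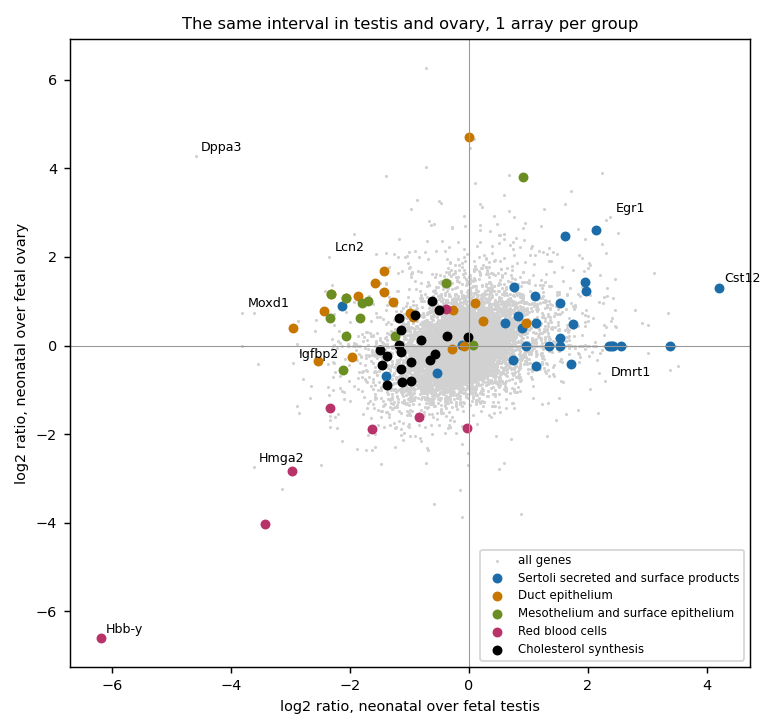
Each point is a gene, placed by its log2 ratio of neonatal over fetal testis (x axis) and of neonatal over fetal ovary (y axis), floored signals, 1 array per group, with 5 lists in colour. Secreted Sertoli products spread to the right, 8 of them on the zero line of the ovary axis because both ovaries are at the floor, red cell genes lie at the lower left with Hbb-y at -6.19 in testis, and Dppa3 stands alone at the upper left.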

How the data were processed

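Each of 6 gonad groups was measured on 1 array with biotin-labelled RNA, per the labels' protocols. The authors deposited 1 linear intensity for each of 45101 probe sets and array. The submitters' processing notes name GCOS 1. The steps of background correction, probe summary and scaling were not given in the sources used here, so ratios of dim genes are open to an unknown background.

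The deposited intensities were multiplied by 1 factor per array (0.968 for fetal and 1.081 for neonatal testis) to a common 2% trimmed mean and raised to the pooled median of 75.3. The platform annotation gave 34945 probe sets 1 symbol and 932 several, and left 9211 unnamed. Each gene took its brightest single-symbol probe set, giving 18193 genes, of which 18145 symbols are in the GRCm38.p6 gene table. Control probe sets (64) were left out. Of 957 list genes in 42 lists, 872 were matched, and 2 lists were added after the values were seen. The comparison, members and lists were chosen with earlier results of these data known.

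Genes are named by a rule: in each direction, the 12 with the largest ratio above the floor on both arrays, the 12 brightest with the other array at the floor, and members of the lists, with other probe sets where their log2 ratio differed by more than 1. No test was run, since each group has 1 array. Alternatives changed the scaling, the floor and the probe set rule. The steps were tested on simulated data. Python 3.11.15, numpy 2.4.6 and pandas 2.3.3 were used.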

Additional observations from a re-analysis of the deposited data

Results flagged for a closer look

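Genes that moved 4-fold or more one way in testis and 4-fold or more the other way in ovary over the same interval numbered 2, and with 1 array per group neither difference was tested. Dppa3, which marks germ cells and is stored in oocytes, had a log2 ratio of neonatal over fetal signal of -4.60 in testis, a bound since the neonatal testis was at the floor, and of 4.28 in ovary. Lcn2, a secreted iron-carrier binding protein of epithelia and white blood cells, had -2.35 in testis (556 in fetal and 109 in neonatal testis) and 2.01 in ovary (229 in fetal and 919 in neonatal ovary). Groups of 1 array cannot hold a sample far from its replicates.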

How the results depend on the processing

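Counts of called genes followed the floor and the rule for probe sets. With the floor at the 25th percentile there were 690 genes higher and 1063 lower by 2-fold, and 101 and 175 by 4-fold. At the 75th percentile there were 214 and 179, and 22 and 13. With no floor and 16 added to each signal, all 18193 genes were counted instead of the 12669 above the floor. There were then 665 higher and 950 lower by 2-fold and 128 lower by 4-fold. Averaging a gene's probe sets gave 389 lower by 2-fold, and 43 higher and 51 lower by 4-fold. Other scalings and leaving out probe sets whose names end in _x_at or _s_at kept each count within 1.5 times the value reported, though the share of higher genes among 2-fold calls ran from 26.4% to 54.8%. Of 208 named genes past 2-fold, all 208 kept their sign under quantile normalization, deposited signals, equal medians and hybridization controls, and between 191 and 198 stayed past 2-fold. With averaged probe sets 171 did, and at the 75th percentile 124, where 175 kept their sign and the other 33 had both arrays at that floor. Of 6 list medians of 1 or more in size, 3 stayed so at the 75th percentile and 3 with averaged probe sets. These 6 include the Hox list, which was added after the values were seen. No paired analysis was possible because each group has 1 array, and no replicate could be left out.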
